A study of Mus musculus with 4 samples.

Results

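The 868 regions described here are stretches of chromatin bound by RYBP that lie away from every annotated gene. They are the merged RYBP regions under 4000 bp that overlapped a peak of each of 2 replicates by at least 1 bp, lay more than 2.5 kb from every protein-coding start site and more than 1 kb from every noncoding start site, and touched no gene body of any type. The whole merged list holds 22409 regions. Of its 4396 distal intergenic regions under 4000 bp, 868 were found in both replicates, which is 19.7% (exact 95% interval 18.6 to 20.95%). The same share was 9.1% over distal intronic regions, 59.1% over regions within 2.5 kb of a protein-coding start site (promoter regions), 42.5% over all merged regions under 4000 bp and 44.2% over the merged list as a whole. The 868 regions were selected on the peak calls of both replicates, so their number, fold enrichment and q-values are given as a description. Exact (Clopper-Pearson) intervals cover counting error over regions only, and regions of 1 library are not replicates.

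RYBP ChIP-seq was carried out on 2 samples of wild-type FLK1-positive mesoderm, sorted from embryoid bodies made of mouse embryonic stem cells labelled C57Bl/6 X Sv129. The labels place the cells at day 3.75 of differentiation, and the written methods name a somewhat later day. The antibody was raised against DEDAF, another name for RYBP, and 2 input samples from the same cells served the authors' peak caller as background. The question was where RYBP sits on chromatin in mesoderm that gives rise to blood. The deposited lists hold 14794 peaks in replicate 1 and 18154 in replicate 2, and give no read counts. No ChIP from cells without RYBP was analysed here. The labels do not state whether the replicates came from separate cultures. With 1 group of 2 samples no test over samples was possible, and no p-value is given.

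RYBP is a subunit of the non-canonical forms of Polycomb repressive complex 1, a family of complexes that attach ubiquitin to histone H2A. It competes with the chromobox proteins of canonical complexes for the same surface of the RING1 subunit. Polycomb complexes are best known for holding developmental regulators silent, and in mammals they gather at CpG islands, stretches of DNA rich in unmethylated CpG dinucleotides. Several non-canonical complexes reach such DNA through a CxxC zinc finger protein, KDM2B, or through sequence-specific factors such as MGA and E2F6. FLK1, encoded by Kdr, is a receptor for vascular endothelial growth factor and marks mesoderm from which blood and endothelium arise.

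The range of sequence under these regions is shown by the central 300 bp of 7 of them, read from the plus strand of mm9, with every CpG in capitals. The first 3 had the highest fold enrichment in the weaker of their replicates. They lie at chr2:119698418-119698717 upstream of Mga, at chr7:16647680-16647979 upstream of Zfp541 and at chr13:58459996-58460295 upstream of Kif27.
Mga: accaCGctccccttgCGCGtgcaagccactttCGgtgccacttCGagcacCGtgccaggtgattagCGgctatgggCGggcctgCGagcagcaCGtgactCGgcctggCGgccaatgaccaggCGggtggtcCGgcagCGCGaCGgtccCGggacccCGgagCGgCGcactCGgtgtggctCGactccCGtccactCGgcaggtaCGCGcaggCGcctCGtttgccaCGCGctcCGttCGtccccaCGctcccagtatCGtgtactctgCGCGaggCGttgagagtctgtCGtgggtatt
Zfp541: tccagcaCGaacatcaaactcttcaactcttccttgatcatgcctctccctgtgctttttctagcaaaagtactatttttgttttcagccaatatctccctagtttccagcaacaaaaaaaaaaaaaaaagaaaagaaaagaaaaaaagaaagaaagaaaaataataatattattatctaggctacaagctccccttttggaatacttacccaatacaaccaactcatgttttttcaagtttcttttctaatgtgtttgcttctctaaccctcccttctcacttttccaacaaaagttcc
Kif27: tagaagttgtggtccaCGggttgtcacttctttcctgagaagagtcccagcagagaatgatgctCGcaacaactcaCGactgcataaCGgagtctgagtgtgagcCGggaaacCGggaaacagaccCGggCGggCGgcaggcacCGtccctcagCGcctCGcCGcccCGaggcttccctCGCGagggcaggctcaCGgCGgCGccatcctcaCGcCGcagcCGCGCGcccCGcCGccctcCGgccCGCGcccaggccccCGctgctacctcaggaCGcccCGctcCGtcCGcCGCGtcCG
The window near Mga held 39 CpG and that near Kif27 held 37, whereas the window near Zfp541 held 1 and its region, 2655 bp wide, carried its CpG dinucleotides away from the centre. The next pair, at chr15:80542054-80542353 near Fam83f and chr7:72672314-72672613 near Tarsl2, came from the regions with the most CpG per 100 bp.
Fam83f: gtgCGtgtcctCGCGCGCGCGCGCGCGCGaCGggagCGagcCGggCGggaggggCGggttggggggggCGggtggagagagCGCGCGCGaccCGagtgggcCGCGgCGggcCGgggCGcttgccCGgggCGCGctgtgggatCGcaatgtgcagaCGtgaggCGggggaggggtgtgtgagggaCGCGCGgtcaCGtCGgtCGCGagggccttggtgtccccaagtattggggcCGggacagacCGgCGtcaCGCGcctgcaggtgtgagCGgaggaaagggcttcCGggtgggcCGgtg
Tarsl2: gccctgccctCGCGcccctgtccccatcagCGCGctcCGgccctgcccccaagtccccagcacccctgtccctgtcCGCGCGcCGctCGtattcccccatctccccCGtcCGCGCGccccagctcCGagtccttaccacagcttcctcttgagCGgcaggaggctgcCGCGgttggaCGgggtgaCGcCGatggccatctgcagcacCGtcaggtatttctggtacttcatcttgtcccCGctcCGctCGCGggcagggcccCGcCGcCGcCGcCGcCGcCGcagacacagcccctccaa
The last pair, at chr3:59849362-59849661 near Aadac and chr9:123782108-123782328 near Xcr1, came from the regions with the fewest. The Xcr1 window runs into an assembly gap, and its longest stretch of known bases, 221 bp, is shown.
Aadac: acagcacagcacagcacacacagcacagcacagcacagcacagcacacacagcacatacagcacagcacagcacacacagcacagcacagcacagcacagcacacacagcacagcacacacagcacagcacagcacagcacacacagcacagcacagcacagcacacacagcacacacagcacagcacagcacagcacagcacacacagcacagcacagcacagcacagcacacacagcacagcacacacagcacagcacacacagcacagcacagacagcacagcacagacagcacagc
Xcr1: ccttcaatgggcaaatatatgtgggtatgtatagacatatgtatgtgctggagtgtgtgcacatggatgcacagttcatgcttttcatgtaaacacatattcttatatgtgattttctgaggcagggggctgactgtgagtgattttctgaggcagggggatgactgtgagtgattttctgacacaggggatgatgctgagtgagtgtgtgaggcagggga
There were 47 CpG near Fam83f and 33 near Tarsl2, against 0 in both windows of the last pair, and the Aadac window is a short tandem repeat throughout.

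RYBP enrichment over these regions was moderate. The deposited fold enrichment, a linear ratio of ChIP pile-up to local background, was taken as the highest value among a replicate's peaks in a region. In replicate 1 it ran from 1.60 to 6.69 with a median of 3.32 and quartiles of 3.05 and 3.72. In replicate 2 it ran from 1.41 to 7.55 with a median of 3.69 and quartiles of 3.34 and 4.22. Replicate 2 gave the higher value at 653 of the 868 regions (75.2%), close to its 77.0% over promoter regions found in both replicates. Across the 868 regions the values of both replicates had a Spearman correlation of 0.44, a description over regions that share libraries. The median −log10 q was 2.30 in replicate 1 and 2.85 in replicate 2, and 450 regions (51.8%) reached 2 in each. Among regions found in both replicates, that share was 36.1% over distal intronic regions and 73.2% over promoter regions. Over all such regions under 4000 bp it was 69.5%. Promoter regions found in both replicates had medians of 3.52 and 4.03 for fold enrichment, and distal intronic ones 3.10 and 3.41. The distal intergenic medians therefore lay between those of intronic and promoter regions in each replicate.

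**Figure D1:**
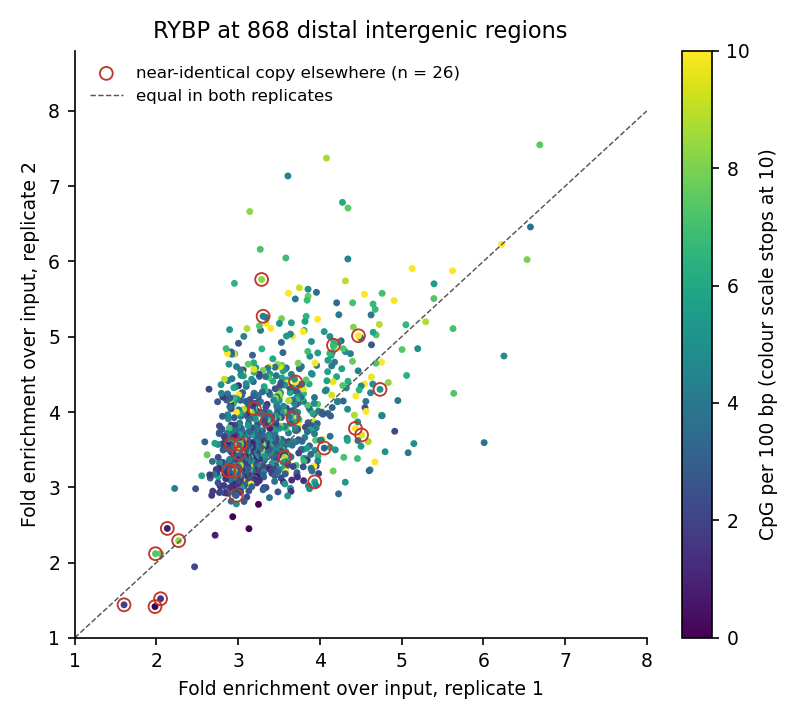
Fold enrichment over input in replicate 1 (horizontal axis) and replicate 2 (vertical axis) at the 868 distal intergenic regions, coloured by CpG per 100 bp, with the 26 regions that have a near-identical copy elsewhere in the genome circled. Most points lie above the line of equal values, and 8 regions lie apart with values under 2.6 in both replicates.

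The 6 regions highest by the smaller of both values were the following. The region upstream of Mga, which encodes a MAX partner and subunit of a non-canonical Polycomb complex, was enriched 6.69-fold in replicate 1 and 7.55-fold in replicate 2. It lay 23.6 kb from the Mga start site, towards Tyro3, and its −log10 q was 13.7 and 14.1. Next came the region near Zfp541, a zinc finger gene, at 6.58 and 6.46, and that near the kinesin gene Kif27, at 6.23 and 6.23. The region 60.5 kb from Ankrd33 followed with 6.54 and 6.03. Near Tet3, which encodes an enzyme that oxidises 5-methylcytosine, the values were 5.62 and 5.88 at 13.996 kb from the start site. The sixth lay in a tract of 7.402 kb between Bmi1, a subunit of canonical Polycomb repressive complex 1, and the predicted gene Gm13334, with 5.397 and 5.70. These 6 were among the 11 regions (1.27%) with at least 5-fold enrichment in both replicates, and the other 5 lay near Car15, Ppara, Tex16, Tnfrsf13c and Tbr1. The share at that level was 1.37% over distal intronic regions of both replicates, 2.52% over promoter regions and 2.38% over all under 4000 bp. Of the first 6, only the regions near Mga and Gm13334 had a nearest gene with RYBP at a start site in both replicates.

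Regions near 3 further genes of Polycomb subunits are given as examples, picked by hand after their values were seen and with no count over such genes. Rybp itself was the nearest gene of 3 regions, at 48.5, 123 and 246 kb from its start site. Their fold enrichment was 3.53, 3.84 and 3.18 in replicate 1 and 3.12, 3.36 and 4.08 in replicate 2, in that order, and they were CpG-poor, with 1.27 to 2.33 CpG per 100 bp. By contrast, a single region 29.4 kb upstream of Pcgf5, which encodes a RING finger partner of RYBP in a non-canonical complex, held 8.92 CpG per 100 bp, with a fold enrichment of 4.31 and 5.74. The region 55.5 kb from Ezh2, the histone methyltransferase of Polycomb repressive complex 2, held 6.91 CpG per 100 bp and gave 3.58 in replicate 1 and 6.05 in replicate 2. All 3 of these genes had RYBP at a start site in both replicates.

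Base composition set these regions apart from the intergenic calls of 1 replicate. The median GC content was 56.3% with quartiles of 52.9 and 60.4% and a range of 34.5 to 75.8%. CpG density had a median of 3.86 per 100 bp with quartiles of 2.59 and 5.62 and a range of 0 to 14.1. At least 3 CpG per 100 bp were found in 582 of 868 regions (67.1%, interval 63.8 to 70.2%), against 532 of 3528 distal intergenic regions called in 1 replicate (15.1%, 13.9 to 16.3%). The share was 44.3% (37.6 to 51.1%) over the 219 distal intronic regions of both replicates and 95.4% (94.9 to 95.9%) over the 7495 promoter regions of both. None of these intervals overlap. A GC content of at least 50% with an observed to expected CpG ratio of at least 0.6, a common reading of a CpG island, was met by 287 distal intergenic regions (33.1%, 29.9 to 36.3%), by 19.6% of intronic and by 71.8% of promoter regions. At the other end, 28 of the 868 (3.23%) held under 1 CpG per 100 bp, against 975 of the 3528 (27.6%).

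**Figure D2:**
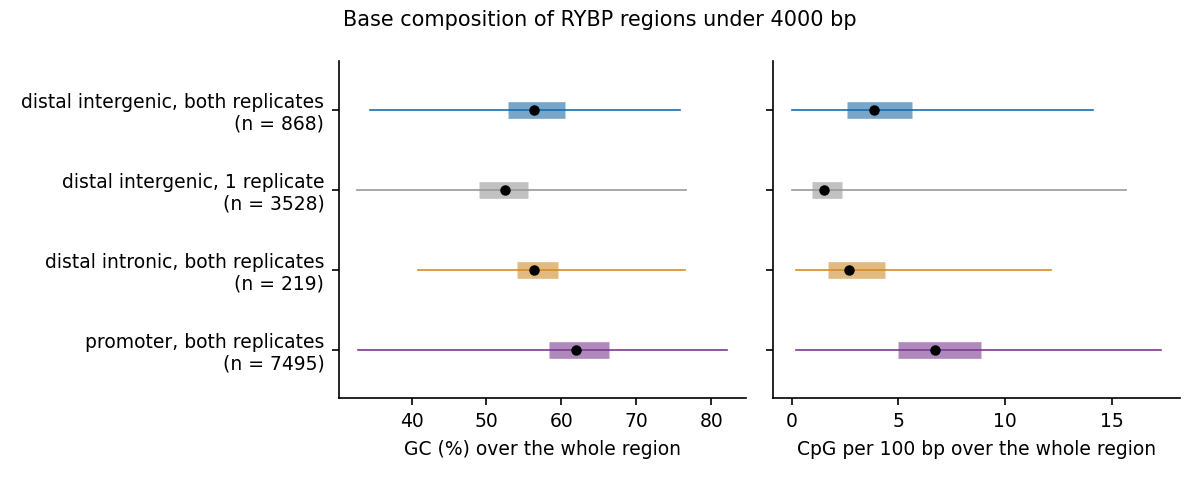
GC content (left, %) and CpG per 100 bp (right) over whole regions in 4 classes of merged RYBP regions under 4000 bp; points are medians, thick bars span the quartiles and thin lines the full range. The median CpG density was 3.86 in distal intergenic regions of both replicates, 1.52 in those of 1 replicate, 2.66 in distal intronic regions and 6.69 in promoter regions.

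Width and strength of the calls moved with this difference. A merged region is the union of overlapping peaks, and the median width was 1270 bp for the 868 regions and 490 bp for those of 1 replicate. Over the central 300 bp alone, where width is equal, the medians were 4.0 and 1.33 CpG per 100 bp. Regions of 1 replicate with a −log10 q of at least 2, a comparison added after the data were seen, numbered 788 and had a median of 2.04 CpG per 100 bp, with 30.6% (27.4 to 33.9%) at 3 or more. Of the 450 regions with a −log10 q of at least 2 in each replicate, 83.3% (79.6 to 86.7%) reached 3 CpG per 100 bp, and of the 149 under 2 in each, 34.9% (27.3 to 43.1%). The last of these shares overlapped that of the stricter regions of 1 replicate. Within the 868, the Spearman correlation between CpG density and fold enrichment was 0.39 for replicate 1 and 0.47 for replicate 2, and that of GC content 0.23 and 0.33. Between the 868 regions and those of 1 replicate, width and −log10 q thus moved with CpG density. Within the 868 width did not, with a median of 1226 bp at 3 or more CpG per 100 bp and 1417.5 bp below. The part of width and −log10 q in the difference was not tested.

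The CpG enrichment was local. In 200 bp bins, mean CpG density was 5.08 and 5.30 per 100 bp on either side of the centre and 1.44 and 1.45 in the bins 4900 bp away. Mean GC content was 58.3 and 59.0% at the centre and 46.8 and 47.0% at that distance. Promoter regions rose from 1.17 to 8.70 CpG per 100 bp over the same span. The intronic regions rose from 1.85 to 4.35, with a flanking GC content of 50.2% that was above the intergenic 46.8%.

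**Figure D3:**
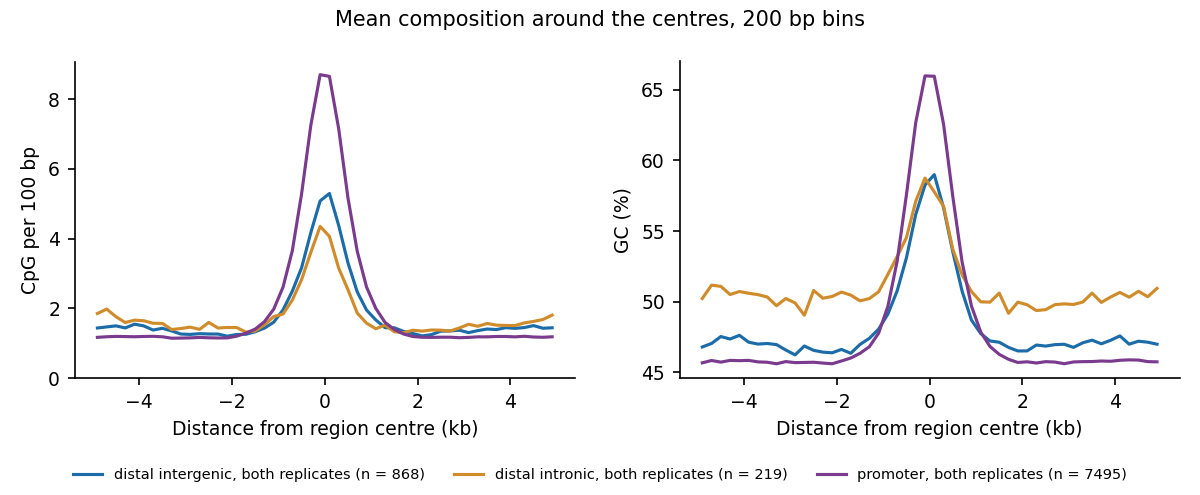
Mean CpG per 100 bp (left) and mean GC content (right, %) in 200 bp bins against distance from the region centre (kb), for distal intergenic, distal intronic and promoter regions found in both replicates. The distal intergenic curve peaks at 5.30 CpG per 100 bp at the centre and returns to about 1.44 at the edges.

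Individual regions spanned the whole of this range. The most CpG-dense were those near Fam83f with 14.1 per 100 bp, Tarsl2 with 13.3, the predicted gene Gm10417 with 13.2, the homeobox gene Zfhx3 with 12.9 and the kinectin gene Ktn1 with 12.8. Their fold enrichment did not follow that order. The Fam83f region had 3.05 and 3.10, below the median of the 868 in each replicate, and the Gm10417 region 4.47 and 5.01, while the Zfhx3 region had 3.40 in replicate 1 and 5.11 in replicate 2. The regions without any CpG were those near Aadac, which encodes a deacetylase (3.25 and 2.77), near the chemokine receptor gene Xcr1 (2.93 and 2.61) and near 4930467E23Rik (1.98 and 1.41). Zfp825 and Hoxc4 completed the 5 poorest, with 0.0463 and 0.17 CpG per 100 bp. The Hoxc4 region, 2.80 kb from its start site at chr15:102867623-102868779, gave 3.23 and 3.14, below the median of the 868 in each replicate. Its −log10 q was 1.81 and 1.29. All 5 of the poorest had a higher value in replicate 1 than in replicate 2, the opposite of most of the 868.

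Distance to genes was considered next. The median distance to the nearest protein-coding start site was 20.2 kb, with quartiles of 8.35 and 47.9 kb, and 508 of 868 regions (58.5%) lay upstream of it. The regions of 1 replicate had a median of 21.5 kb. Distances to noncoding start sites were longer, with a median of 47.4 kb, and the nearest gene body of any type was 9.96 kb away at the median. The intergenic tracts that held the regions had a median length of 59.0 kb. The 81 regions over 100 kb from every protein-coding start site made up 9.33% of the 868 and held a median of 4.82 CpG per 100 bp. At 2.5 to 5 kb the median was 3.47, and at 5 to 10 kb it was 3.26. The share with at least 3 CpG per 100 bp was 66.7% (56.8 to 75.6%) at 2.5 to 5 kb and 56.5% (48.7 to 64.2%) at 5 to 10 kb. Beyond 100 kb it was 77.8% (67.2 to 86.3%), an interval that overlaps that of 2.5 to 5 kb. Fold enrichment showed little relation to distance, with a Spearman correlation of 0.01 in replicate 1 and 0.05 in replicate 2.

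Of the 5 remotest regions, 3 were enriched above the median of the 868 in both replicates. The farthest, at chr8:52001047-52003501, lay 1430 kb from the start site of 4930555F03Rik with a fold enrichment of 3.47 and 4.48. The region at chr3:25042458-25043308, 810 kb from Gm7536 on the side of Nlgn1, a synaptic adhesion gene, held 12.1 CpG per 100 bp and gave 3.80 and 5.07. The next, 634 kb from the axon guidance receptor gene Robo1, gave 3.24 and 3.44 with 3.02 CpG per 100 bp. The last of the 5, near Gm17391 (566 kb) and Olfr161 (477 kb), each had a near-identical copy elsewhere. The Gm17391 region gave 3.67 and 3.92 and the Olfr161 region 2.13 and 2.45.

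Nearest genes often carried RYBP themselves. The nearest protein-coding gene had a region of both replicates within 2.5 kb of a start site at 577 of 868 regions (66.5%, 63.2 to 69.6%). Of all 22380 protein-coding genes 37.0% were occupied, counted once per gene, whereas a gene near several regions counts for each of them. Over the regions of 1 replicate it was 65.5% (63.9 to 67.1%), and both intervals overlap. Over intronic regions of both replicates it was 81.7% (75.97 to 86.6%). Within the 868 the share was 71.4% (61.8 to 79.8%) at 2.5 to 5 kb and 82.1% (75.5 to 87.6%) at 5 to 10 kb. Beyond 100 kb it was 49.4% (38.1 to 60.7%). Regions whose nearest gene was not occupied were the more CpG-dense, with medians of 4.86 and 3.45 per 100 bp for unoccupied and occupied genes. The share with at least 3 CpG per 100 bp was 78.7% (73.5 to 83.3%) for the first and 61.2% (57.1 to 65.2%) for the second.

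**Figure D4:**
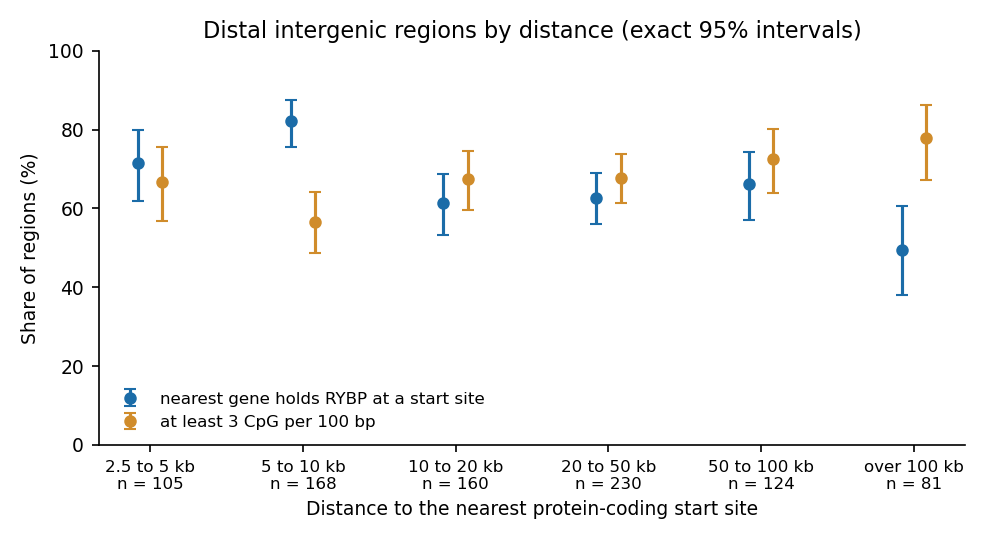
Share of the 868 distal intergenic regions (%) with RYBP at a start site of the nearest protein-coding gene in both replicates, and share with at least 3 CpG per 100 bp, by distance to the nearest protein-coding start site; bars are exact 95% intervals. Occupied nearest genes make up 71.4, 82.1 and 49.4% at 2.5 to 5 kb, 5 to 10 kb and beyond 100 kb. In the classes from 10 to 100 kb they make up 61.25 to 66.1%. CpG-dense regions make up 66.7, 56.5 and 77.8% at the same distances, and 67.5 to 72.6% from 10 to 100 kb.

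Many of the regions had RYBP neighbours. Another merged region lay within 10 kb of 548 of them (63.1%, 59.8 to 66.4%), and a region of both replicates within 10 kb of 385 (44.4%, 41.0 to 47.7%). Over the regions of 1 replicate these shares were 54.6% (53.0 to 56.3%) and 31.7% (30.1 to 33.2%), over intronic regions of both replicates 78.1% (72.0 to 83.4%) and 54.3% (47.5 to 61.1%), and over promoter regions of both replicates 37.5 and 19.0%. Conversely, 130 regions (15.0%) had no merged region within 50 kb. Over the regions of 1 replicate that share was 14.9%, over intronic regions 5.94% and over promoter regions 30.2%. The 130 isolated regions were more CpG-dense, with a median of 6.07 CpG and 113 of 130 (86.9%, 79.9 to 92.2%) at 3 or more per 100 bp, against 3.34 and 59.3% (55.1 to 63.5%) for regions with a neighbour within 10 kb. Their fold enrichment had medians of 3.52 and 4.001, against 3.29 and 3.64, in replicates 1 and 2. Their nearest gene was occupied in 36.9% (28.6 to 45.8%), against 79.0% (75.4 to 82.4%). This contrast is partly set by the definitions, because a region without another within 50 kb can have no occupied start site close by. The median distance to the nearest protein-coding start site was 68.3 kb for isolated regions, against 12.4 kb.

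The nearest genes were then read against 12 gene lists. Over the 7 lists of transcription factors joined, a union formed after the data were seen, 198 of the 868 regions (22.8%, 20.1 to 25.7%) had such a gene as the nearest. It was 11.1% (10.1 to 12.2%) over the regions of 1 replicate, 13.7% (9.44 to 19.0%) over intronic regions and 3.39% (2.99 to 3.82%) over promoter regions, and 461 of 22380 protein-coding genes (2.06%) are in these lists. Genes of this kind often lie in long intergenic tracts, and tract length was not adjusted for. Of the 198 regions, 190 had RYBP at a start site of that gene in both replicates. So had 375 of the 391 such regions of 1 replicate and all 30 intronic ones, and 401 of the 461 listed genes. The 198 regions lay closer to their nearest gene than the 868 as a whole, with a median of 10.1 kb.

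Homeobox genes, which encode homeodomain factors that pattern the embryo, were the nearest genes of 93 regions (10.7%, 8.74 to 12.96%), spread over 55 genes. The shares were 5.24% (4.53 to 6.03%) over regions of 1 replicate, 4.11% (1.90 to 7.66%) over intronic and 1.11% over promoter regions. Among the highest were the regions near Mnx1 (4.29 and 4.84), Pou3f3 (4.18 and 4.66) and Shox2 (4.22 and 4.14). Regions beside homeobox genes held a median of 3.35 CpG per 100 bp and the other 775 held 4.004, and the shares with at least 3 overlapped in their intervals, at 61.3% (50.6 to 71.2%) and 67.7% (64.3 to 71.0%). Of the 93, 83 (89.2%, 81.1 to 94.7%) had another merged region within 10 kb, against 465 of the 775 (56.5 to 63.5%). Their gene was occupied at a start site in 97.8% (92.4 to 99.7%), against 180 of 185 regions of 1 replicate and 178 of all 193 homeobox genes.

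The other transcription factor families were each represented by fewer regions. Basic helix-loop-helix genes were nearest to 27 regions (3.11%, against 1.70% over regions of 1 replicate, 0.457% over intronic regions and 0.295% of all genes), led by the neural genes Atoh1 (4.63 and 4.89), Neurog2 (4.56 and 4.14) and Neurog1 (3.98 and 4.01) and by Hand2, a gene of heart and limb (3.73 and 3.78). The list of GATA and developmental zinc finger factors held 35 regions (4.03%, against 2.35, 5.02 and 0.505% in the same order), with Runx3 at 4.07 and 4.28 and the orphan nuclear receptor genes Nr2f2 at 4.13 and 3.95 and Nr2f1 at 3.90 and 4.94. Forkhead genes had 14 (1.61%, against 0.680, 1.83 and 0.192%), among them Foxp4 (4.21 and 4.14), Foxa1 (4.15 and 4.06), Foxd3 (3.93 and 4.19) and Foxk1 (3.83 and 4.43). Pax genes, which encode paired-domain factors, had 14 (1.61%), with Pax3 at 4.68 and 5.36 and Pax9 at 3.53 and 3.99, against 9 of the 3528 regions of 1 replicate (0.255%) and 4 of the 219 intronic regions (1.83%), and 8 of the 14 belonged to Pax2 alone. T-box genes had 10 (1.15%, against 0.539, 0.457 and 0.0760%), and besides Mga the highest were those near Tbr1 (5.05 and 5.16), Tbx18 (3.82 and 5.20) and Tbx20 (3.47 and 3.52). Sox genes had 5 (0.576%, against 0.312, 0 and 0.0894%), with Sox21 at 3.65 and 4.01 and Sox11 at 3.596 and 4.39.

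Genes of mesodermal lineages were considered next. Cardiac and paraxial mesoderm genes were nearest to 26 regions (2.995%, 1.97 to 4.36%), 24 of which had RYBP at a start site of that gene. The regions of 1 replicate gave 2.18% (1.73 to 2.72%), intronic regions 4.11% (1.90 to 7.66%) and all protein-coding genes 0.282%. Of the 63 genes in the list 53 were occupied, as was the nearest gene of 72 of the 77 regions of 1 replicate. Besides those near Pax3 and Tbx18, one of the highest lay near Six2 (4.34 and 4.04). The list of blood and endothelium was nearest to 1 region of 868 (0.115%, 0.00292 to 0.640%), at chr5:148563184-148563705 near Flt1, which encodes a receptor for vascular endothelial growth factor, with a fold enrichment of 3.61 and 2.89. Intronic regions of both replicates gave 5 of 219 for that list (2.28%, 0.745 to 5.25%), an interval that does not overlap the intergenic one, and the regions of 1 replicate gave 20 of 3528 (0.567%, 0.347 to 0.874%), which does. Of all protein-coding genes, 0.232% are in that list, within the interval of the intergenic share. Signalling genes had 24 regions (2.76%), against 3.29% over the regions of 1 replicate and 2.74% over intronic regions. Promoter regions gave 1.75%, and 0.822% of all protein-coding genes are in that list. The 24 regions were led by those near the axon guidance receptor gene Robo3 (4.28 and 6.79), the Notch ligand gene Dll4 (4.95 and 4.15), Wnt2b (3.80 and 4.31) and Wnt7b (3.70 and 5.50). Olfactory and vomeronasal receptor genes had 4 (0.461%, 0.126 to 1.18%), against 6.49% of all protein-coding genes. Over regions of 1 replicate the share was 0.624% (0.391 to 0.943%), an interval that overlaps. Intronic regions gave 0% and promoter regions 0.0267%. None of the 4 genes had RYBP at a start site in both replicates, as was the case for all but 2 of the 1453 genes listed. Zinc finger genes named Zfp had 22 (2.53%, 1.60 to 3.81%), 9 of them with RYBP at a start site, against 1.70% (1.30 to 2.18%) over regions of 1 replicate. Of all 365 such genes 113 were occupied, as was the nearest gene of 42 of the 60 regions of 1 replicate.

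**Figure D5:**
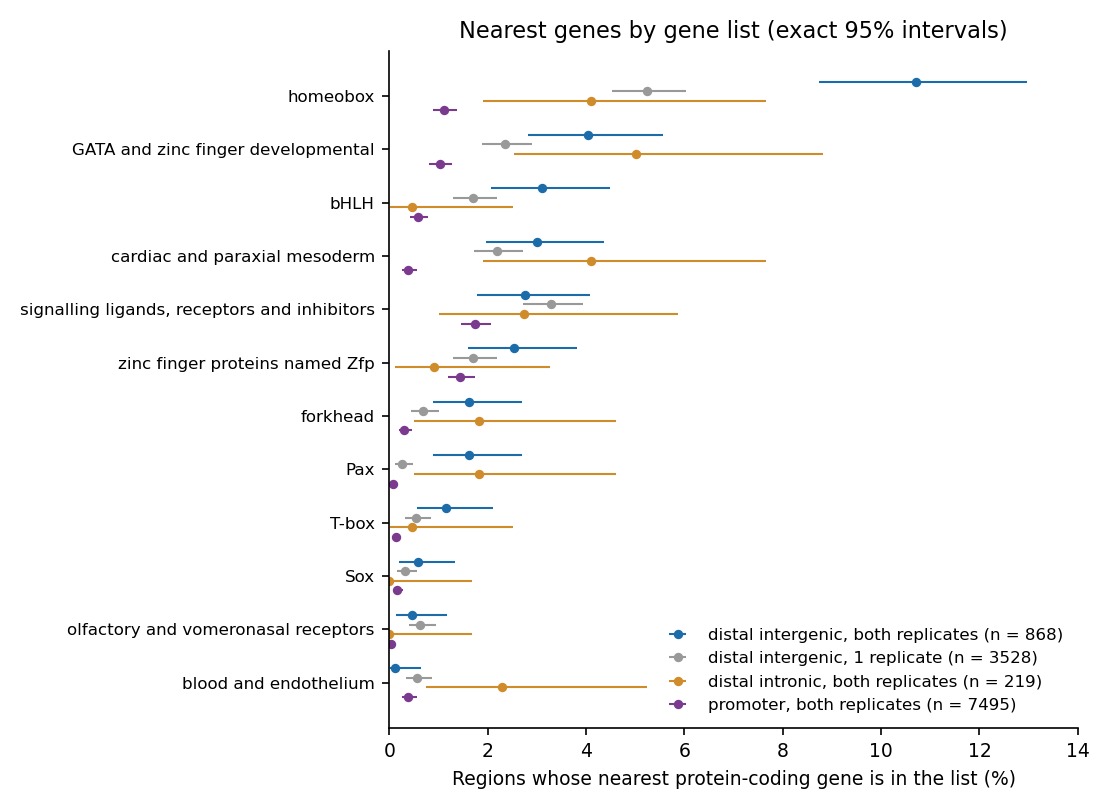
Share of regions (%) whose nearest protein-coding gene belongs to each of 12 gene lists, for 4 classes of RYBP regions under 4000 bp; points are shares and bars exact 95% intervals. Homeobox genes are nearest to 10.7% of distal intergenic regions of both replicates and to 5.24% of those of 1 replicate, with intervals that do not overlap.

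Some genes had several such regions around them. The 868 regions had 694 different nearest genes, of which 575 had a single region and 31 had 3 or more. Of these 31 genes, 14 are in one of the transcription factor lists, against 127 of the 694 nearest genes and 461 of all 22380 protein-coding genes. A long intergenic tract can hold more regions, and tract length was not adjusted for. Pax2, a paired-box gene of kidney and midbrain-hindbrain, had 8 regions, between 13.5 and 82.6 kb upstream of its start site. Their fold enrichment was even in replicate 1, from 2.92 to 3.61, and ran from 3.298 to 7.14 in replicate 2, where the region at chr19:44799733-44801000 stood above the other 7 (3.61 in replicate 1 and 7.14 in replicate 2). They held 3.35 to 5.55 CpG per 100 bp, all above the threshold of 3. BC107364 had 7 regions with 2.92 to 4.05 in replicate 1 and 3.01 to 4.77 in replicate 2, and 1700001O22Rik also had 7.

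The tract with the most regions lay at the 3′ side of the HoxC cluster. Between Hoxc4 and Smug1, a uracil DNA glycosylase gene, a tract of 86.2 kb on chromosome 15 held 6 regions, from position 102867623 to 102933464. Their fold enrichment was 2.98 to 4.13 in replicate 1 and 3.14 to 4.76 in replicate 2, and their CpG density ran from 0.17 to 5.12 per 100 bp. Pou3f3, a POU factor gene of the nervous system, had 5 regions on both of its sides. The one upstream of it gave 4.18 and 4.66, and the 4 on the Mrps9 side 2.98 to 3.24 and 3.26 to 3.83. These 4 held 0.593 to 2.92 CpG per 100 bp and the upstream one 4.09. Gsx2, a homeobox gene next to the receptor gene Pdgfra, had 4 regions with 3.005 to 3.47 in replicate 1 and 3.503 to 4.35 in replicate 2, and 2 of them lay in the interval that separates it from Pdgfra. Nr2f2 and Lbx1 also had 4 each, as did Smug1 and the predicted gene Gm9953, and Rhcg had 5 in the tract next to Polg (3.04 to 3.89 and 3.14 to 4.02).

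Mesoderm and germ cell genes with 3 regions included Isl1, Eomes and Nanos3. The regions around Isl1, a homeobox gene of cardiac progenitors, gave 2.98 to 3.45 in replicate 1 and 3.12 to 3.26 in replicate 2, none above the median of the 868 in replicate 2. Around Eomes, a T-box gene of the primitive streak, the values were 2.85, 2.98 and 2.997 in replicate 1 and 3.53, 3.15 and 3.51 in replicate 2, also below both medians. Nanos3, a germ cell gene, differed in that its own start sites held no RYBP in both replicates, and its 3 regions ran from 2.81 to 4.76 in replicate 1 and from 3.53 to 5.58 in replicate 2. The highest of the 3, at chr8:86707269-86708737, had 4.76 and 5.58 with 7.01 CpG per 100 bp. The other genes with 3 regions were 2410131K14Rik, Bahcc1, Barx1, Calcoco1, Epb4.1l3, Epha2, Lhx5, Mef2d, Neurog2, Nkx2-1, Nr2f1, Rpl30-ps6, Rybp, Tac4, Tbca, Tnfrsf13c and Zfhx3.

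Sequence motifs were searched on both strands of the central 300 bp of each region and in 32544 RefSeq promoters of 300 bp (GRCm38.p6). A match is a description of letters and not a bound site. The CGCG tetranucleotide was present in 454 of 868 windows (52.3%, 48.9 to 55.7%), against 12.4% (11.4 to 13.6%) over regions of 1 replicate, 39.7% over intronic regions, 80.0% over promoter regions and 38.3% over the RefSeq promoters. The GC box, GGGCGG, was present in 38.4% (35.1 to 41.7%), against 11.3, 35.2, 59.1 and 35.9%. These letters overlap the CpG count, and within the 868 regions both were concentrated in those with at least 3 CpG per 100 bp, where CGCG was present in 69.4% and the GC box in 49.3%. In the others the shares were 17.5 and 16.1%. The CACCC box, CCACCC, holds no CpG and was present in 42.3% (39.0 to 45.6%), against 31.5% (29.9 to 33.0%) over regions of 1 replicate, 41.6% over intronic regions, 38.5% (37.4 to 39.6%) over promoter regions and 31.6% over RefSeq promoters. A CTCF core, CCNNNAGNNGGC, also with no fixed CpG, was present in 12.3% (10.2 to 14.7%), against 7.9% (7.1 to 8.9%) and 8.7%. It was about as frequent in intronic (12.8%) and promoter regions (12.5%).

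Letters bound by the SCL complex were searched as well. SCL, encoded by Tal1, binds DNA with an E-box partner and a GATA factor. The median GC content of the RefSeq promoters was 53%, below that of the 868 windows, and base composition was not adjusted for. The E-box, CANNTG, was present in 68.9% (65.7 to 72.0%) of the windows, against 80.7% (79.4 to 82.0%) over regions of 1 replicate, 69.9% over intronic regions, 62.6% over promoter regions and 72.3% over RefSeq promoters. Its CAGATG and CAGCTG forms, which are part of that count, were present in 34.2% (31.1 to 37.5%), against 39.0% (37.4 to 40.6%), 41.1, 26.2 and 30.6% in the same order. GATA with A or T before it and A or G after it was present in 22.2% (19.5 to 25.2%), against 32.7% (31.1 to 34.2%), 21.005, 11.03 and 29.6%. A looser composite, CTG and GATA separated by 8 bases, requires neither the whole E-box nor the bases set beside GATA above. It was present in 19 windows (2.19%, 1.32 to 3.40%), against 2.64% (2.13 to 3.22%), 2.28, 0.881 and 2.29%. The E-box and GATA shares thus lay below those of regions of 1 replicate and above those of promoter regions. The 4 regions of highest fold enrichment that hold the composite are shown by 30 bp, with CTG and GATA in capitals and all read from the minus strand. They lie at chr2:151874417-151874446 near Scrt2, chr17:29535411-29535440 near Fgd2, chr17:86079844-86079873 near Six2 and chr8:86399648-86399677 near Lphn1.
Scrt2: gcccggtCTGctctcactGATAaggcgccc
Fgd2: ccttgcaCTGtttttaatGATAatctgttt
Six2: aaacacaCTGtcattatgGATAagagaaac
Lphn1: atgcagcCTGgagttaaaGATAgtttaggg
The fold enrichment of these regions was 4.31 and 4.802 near Scrt2, 3.63 and 4.33 near Fgd2, 3.66 and 3.56 near Six2 and 4.19 and 3.498 near Lphn1, and the regions were chosen for these values.

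The remaining motifs were rarer. The E2F letters, GCGGGAA, were present in 57 windows (6.57%, 5.01 to 8.42%), against 2.21% over regions of 1 replicate and 4.63% over RefSeq promoters, and the ETS letters, CCGGAAG, in 39 (4.49%) against 2.83 and 8.91%. CACGTG was present in 54, YY1 (AAGATGG) in 40, the NRF1 half-site GCGCATG in 18, the forkhead letters TGTTTAC in 16, the octamer ATGCAAAT in 14 and the T-box letters AGGTGTGA in 10. A REST element, TTCAGCACCNNGGACAGC with up to 3 mismatches, was present in 6.

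The regions on either side of each limit of the rule were as follows, with fold enrichment in replicates 1 and 2. Just inside the width limit were the regions near En1 (3888 bp, 3.45 and 3.68) and Dhx15 (3936 bp, 4.28 and 4.35), which with that near Cstad (3.59 and 4.05) were the 3 widest. Just outside were those near Nkx2-3 (4046 bp, 3.13 and 4.08) and Poll (4126 bp, 3.40 and 4.16). At 2500 bp from a protein-coding start site, Accn4 (2539 bp, 2.99 and 3.27) and Gclc (2564 bp, 3.46 and 3.95) were inside and Lef1 (2432 bp, 5.33 and 4.62) and Cdc20b (2455 bp, 4.06 and 4.95) outside, both above the inside pair in each replicate. At 1000 bp from a noncoding start site, the regions near BC107364 (1057 bp, 3.17 and 3.01) and Copz2 (1112 bp, 3.19 and 3.32) were inside and those near Onecut1 (954 bp, 2.92 and 3.25) and Lhx1 (987 bp, 3.34 and 5.33) outside. The CpG density of these 12 regions ran from 2.24 per 100 bp near En1 to 7.29 near Dhx15.

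Few of the regions were found on the X chromosome. It held 11 of the 868. Their density was 0.0660 per Mb there and 0.347 per Mb on the 19 autosomes together, a ratio of 0.190. The ratio was 0.172 over promoter regions of both replicates and 0.0591 over distal intergenic regions of 1 replicate. Over distal intronic regions of both replicates, with 6 on the X chromosome, it was 0.418. The scarcity was thus shared with these classes. Gene density and copy number of the X chromosome were not adjusted for. The autosomes ranged from 0.192 per Mb on chromosome 10 to 0.570 on chromosome 15. Of the 25 distal intergenic merged regions on the X chromosome, 44.0% were found in both replicates, against 857 of 4371 on the autosomes. The strongest of the 11, near Tex16, a testis gene, gave 5.13 and 5.91 with 11.8 CpG per 100 bp and stood alone, with the next merged region 705 kb away.

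A small set stood apart by low fold enrichment. The 8 regions under 2.6 in both replicates included 6 with a near-identical copy elsewhere in the genome, at 90% identity or more over at least 50% of the region, against 26 of the 868 as a whole, and 6 of the 8 reached a −log10 q of 2 in each replicate. The region near Pxmp3, a peroxisome gene, had 2.27 and 2.29 with a −log10 q of 16.0 and 16.9, the highest smaller value of the 868. That near Axin2, an inhibitor of Wnt signalling, had 2.05 and 2.12 with 10.99 and 11.2 and no copy by this measure. Of the 8, 4 had no protein-coding start site between them and the centromere end of their chromosome, against 6 of the 868 as a whole. The part of repeated sequence in these calls was not tested.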

How the data were processed

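ChIP-seq peak lists were analysed for 2 RYBP samples, and the 2 inputs entered through the authors' peak calls. Chromatin was cross-linked with EGS and formaldehyde, sonicated and sequenced in paired ends. According to the written methods the authors aligned reads to mm9 with Bowtie 1.1.2b, removed duplicates and called broad peaks in each sample with MACS2 2.0.10. The deposited fold enrichment is a linear ratio of pile-up to local background, per the authors' peak caller. The deposited −log10 p-value and −log10 q-value are those of the whole broad peak, and the deposited score is a scaled whole-number form of the latter. The deposited merged list holds positions alone, and all 22409 of its regions equalled a union of both peak lists rebuilt here. The files hold no read counts for single peaks, so no interval could be set on a fold enrichment. The read totals that the study states for each library were not used here.

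Each merged region was given the highest fold enrichment and −log10 q among each replicate's overlapping peaks. Start sites came from every transcript of the GENCODE vM1 annotation on mm9 (22380 protein-coding genes with 70064 start sites, and 16928 start sites of other genes), and GC and CpG from the mm9 sequence. A promoter region lay within 2.5 kb of a protein-coding start site, and a gene counted as occupied when a region of both replicates did so. Copies were sought with minimap2 2.31 at 90% identity over 50% of the region. Intervals are exact at 95%, from SciPy 1.17.1, and this code and the motif search were tested on simulated data. RefSeq promoters (GRCm38.p6) served for motif shares only.

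Regions were named by rule. The rule took the 6 with the highest smaller fold enrichment of both replicates, the 5 with the highest smaller −log10 q, the 3 widest, the 5 with most and 5 with fewest CpG, the 5 farthest from genes, the 2 on each side of each limit, up to 4 per gene list, and genes or tracts with 3 or more. Some items that the rule names are not reported here. The regions and gene lists were chosen with earlier results of these data known. Alternatives covered the overlap, the q-value, the distances, the width, copies, windows, thresholds and each replicate left out. Regions were set side by side by medians, shares and intervals, with no test.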

Additional observations from a re-analysis of the deposited data

How the results depend on the processing

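Of 97 values of 10 results recomputed under other settings, 50 stayed within a set margin and 47 moved by more. The margin was the spread between replicates for medians and the exact interval for shares. For the number of regions it was a fixed factor on either side of the main count. Whether a comparison between classes changed direction was not checked. Requiring peaks of each replicate to cover 50% of a region left 535 regions (12.2% of the intergenic ones), with a median GC of 57.5%, 4.46 CpG per 100 bp, 77.8% at 3 or more CpG and 19.683 kb to the nearest protein-coding start site. Peaks with a −log10 q of at least 2 in each left 450 (10.2%), with 57.8%, 4.798, 83.3% and 19.672 kb, 61.3% with an occupied nearest gene, and fold enrichments of 3.64 and 4.01. A distance over 5 kb gave a median of 24.008 kb. Over 10 kb it gave 33.5 kb, GC of 56.9%, 4.12 CpG per 100 bp, 61.2% occupied and 52.3% with a region within 10 kb. The gene record alone gave 21.996 kb, no upper width 19.719 kb and leaving out copies 19.71 kb. Over the central 300 bp GC was 58.3% and CpG density 4.0. The share of CpG-dense regions was 85.9% at 2 CpG, 47.9% at 4 CpG and 33.1% by GC and observed to expected CpG. Occupied nearest genes rose to 76.8% with any merged region and to 83.2% on either side. Neighbours were found for 49.3% within 5 kb, 85.0% within 50 kb and 44.4% when only regions of both replicates counted. With either replicate left out the number was 2421 to 2843, GC 52.97 to 54.1%, CpG density 1.875 to 2.13, the CpG-dense share 29.6 to 34.5%, the distance 20.7 to 21.1 kb and neighbours 57.3 to 57.5%. The fold enrichment was then 3.36 in replicate 2 without replicate 1, and 3.11 in replicate 1 without replicate 2. Of 51 motif shares, 33 moved, 17 over whole regions and 8 without each replicate. The causes were not tested. No paired analysis was possible because the inputs that share the replicate numbers carry no processed file here. The files hold no signal outside peaks, so a region called in 1 replicate is not shown to lack RYBP in the other.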

Other observations

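Some regions differed widely between the replicates, and those named here were chosen after their values were seen. The region near Hlf, which encodes a PAR bZIP factor, was enriched 6.01-fold in replicate 1 and 3.59-fold in replicate 2. Near Btrc, which encodes an F-box protein, the values were 5.08 and 3.46. The opposite order was seen near Socs3, an inhibitor of cytokine signalling, with 3.14 and 6.66, and near Pax2, with 3.61 and 7.14.

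The X chromosome held 2 regions on the same side of Bcor, a gene for a subunit of a non-canonical Polycomb complex with PCGF1, at 72.8 and 80.3 kb from its start site. Their fold enrichment was 3.32 and 3.28 in replicate 1 and 4.34 and 4.14 in replicate 2, with 5.92 and 5.11 CpG per 100 bp. The Bcor start sites were occupied in both replicates.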
